A study of Mus musculus with 2 samples.

Results

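The integrin and laminin genes are described here in a mouse breast tumour cell line, AS0574, sequenced in 2 forms. Members were taken from the deposited gene table by symbol, as every integrin alpha chain, integrin beta chain and laminin alpha, beta or gamma chain, which gave 37 of 23562 genes (18 integrin alpha, 8 integrin beta and 11 laminin chains). The first form, called Rnf8-null below, has the genotype Rnf8-/- with Trp53 deleted on both alleles, and the second, called Rnf8-complemented, is the same double mutant line with Rnf8 put back. By the labels both forms therefore lack p53, and neither has an untouched Rnf8 gene. How the line was derived, how many clones each form stands for and the construct used for Rnf8 were not given in the sources used here. Each form had 1 library of total RNA, so no value below has a replicate check, no test between the forms was made and no p-value is given.

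Integrins are receptors made of 1 alpha and 1 beta chain that hold cells to the matrix and to each other, and the pairing sets the ligand. Laminins are trimers of 1 alpha, 1 beta and 1 gamma chain and form the sheet of the basement membrane on which mammary epithelium rests. Laminin with Lama3 and Lamb3 lies under epithelial cells, where the pair of Itga6 and Itgb4 binds it and ties it to keratin filaments in hemidesmosomes. Receptors for fibronectin and other matrix proteins with the RGD sequence use mostly Itgb1 or Itgav, and receptors for collagen use Itgb1.

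Levels are in RPKM, which scales reads to gene length and to the library's sum of counted reads and so allows chains of different length to be compared. Brackets after a level or a fold hold exact 95% limits that cover counting error only. Counted reads summed to 57263401 for Rnf8-null cells and 48607808 for Rnf8-complemented cells. Rnf8 itself was read at 10.5 RPKM in Rnf8-null cells and 596 RPKM in Rnf8-complemented cells. Since counts are per gene, its reads in the Rnf8-null form do not show which part of the gene was read. The forms also differed in what kind of cell their RNA resembled. Of 16 epithelial markers all 16 were higher by 2-fold or more in the Rnf8-null form. They summed to 6590 RPKM in Rnf8-null cells and 1.71 RPKM in Rnf8-complemented cells, so the defining markers of breast epithelium were near 0 in the Rnf8-complemented form, whose labelled source is breast tumour. Of 5 basal and myoepithelial markers with a mean of at least 1 RPKM, 3 were higher and 1 lower in the Rnf8-null form, and all 11 in the table summed to 491 RPKM in Rnf8-null cells and 12.7 RPKM in Rnf8-complemented cells. Nearly all of the sum in Rnf8-null cells came from Krt14 (229 RPKM) and Krt17 (256 RPKM), and the median difference over all 11 was -0.06. Several other markers had fewer reads in Rnf8-null cells, such as Mylk (4 in Rnf8-null cells against 642 in Rnf8-complemented cells) and Trp63 (3 in Rnf8-null cells against 48 in Rnf8-complemented cells). Of 11 mesenchymal and fibroblast markers with a mean of at least 1 RPKM, 1 was higher and 9 were lower in the Rnf8-null form. All 16 in the table summed to 945 RPKM in Rnf8-null cells and 1957 RPKM in Rnf8-complemented cells. Nearly all of the 945 RPKM came from S100a4, the marker called higher, at 562 RPKM, and Vim, within 2-fold, at 376 RPKM. In Rnf8-complemented cells S100a4 stood at 209 RPKM and Vim at 725 RPKM. The median difference over all 16 was -1.56. Of all 12609 genes with a mean of at least 1 RPKM, 14.8% were higher and 15.9% lower. All the epithelial, all the called basal and most of the lower mesenchymal markers stood below 1 RPKM in 1 form. Such markers pass the filter only through the form where they are high. The part of these marker differences in the values below was not tested, and in bulk RNA fewer cells of a type cannot be told apart from less RNA per cell.

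Rnf8-null cells held more kinds of chain. At a level of at least 1 RPKM, 22 of the 37 chains were expressed in Rnf8-null cells and 14 in Rnf8-complemented cells, 12 of them in both. Over all genes that count was nearly equal, 11981 in Rnf8-null cells against 11958 in Rnf8-complemented cells, 10752 of them in both. A chain was then called higher or lower when the difference in log2(RPKM + 1), taken as Rnf8-null minus Rnf8-complemented, reached 1 in either direction, a 2-fold rule. Of the 37 chains 12 were higher and 2 lower, where 8.57% of all 23562 genes were higher and 9.13% lower. The other 23 chains, 14 of them below a mean of 1 RPKM, lay within these limits. Among the 23 chains with a mean of at least 1 RPKM the count was again 12 higher and 2 lower, beside 14.8% and 15.9% of the 12609 genes past that filter, but a chain that is high in 1 library alone passes the filter only by differing. That made 14 chains past the rule in either direction, beside 30.7% of genes, and 10 chains were at least 4-fold higher and 0 at least 4-fold lower, beside 7.77% and 5.05% of genes. The median difference was 1.03 over those 23 chains and -0.17 over the 12609 genes, and it was 0.00 over all 37 chains and -0.00224 over all genes. For integrins alone it was lower, 0.25 over the 15 past the filter and -0.000678 over all 26. For integrin alpha chains past the filter it was -0.17. The 26 integrins summed to 369 RPKM in Rnf8-null cells and 400 RPKM in Rnf8-complemented cells.

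**Figure D1:**
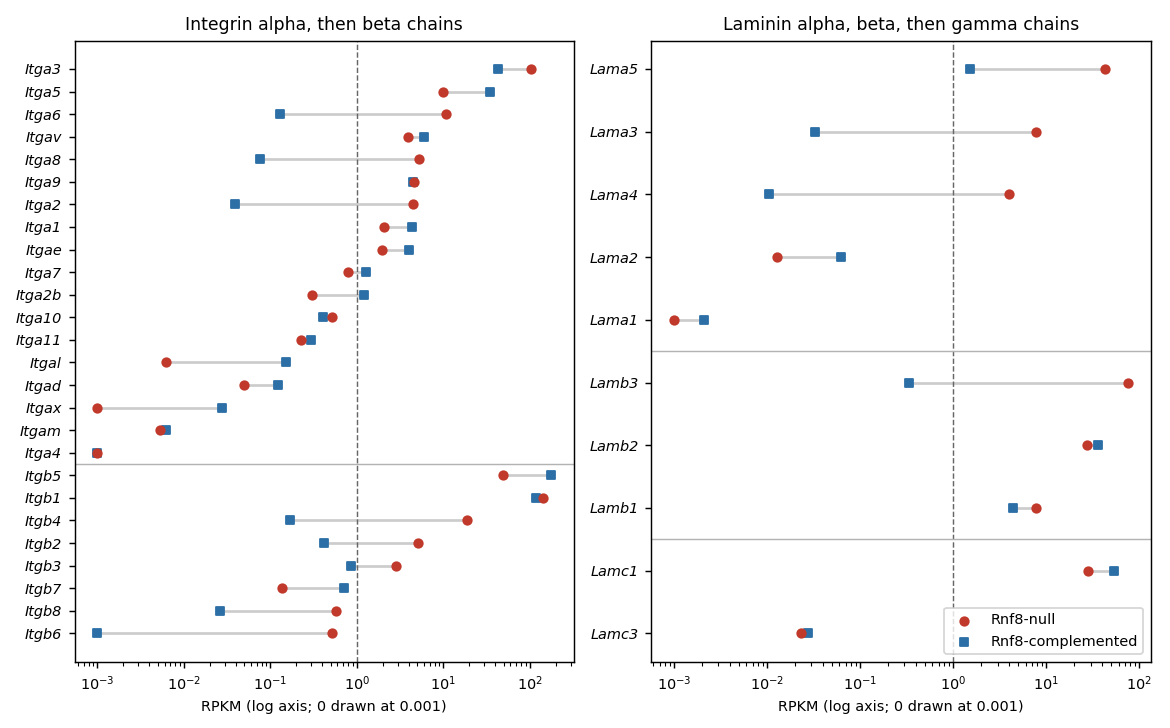
RPKM of integrin and laminin chains in Rnf8-null cells (red circles) and Rnf8-complemented cells (blue squares), 1 library each, on a log axis with 0 drawn at 0.001. The dashed line marks 1 RPKM, and among the longest gaps are those of Lama4, Lama3, Lamb3, Itga2 and Itgb4, which sit to the right of the line in red and to the left in blue.

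The alpha and beta chains of the epithelial laminin were far higher in Rnf8-null cells. Lamb3 (chromosome 1, 193207699 to 193343878 of GRCm38) was read at 75.6 RPKM (74.6 to 76.6, 22174 reads) in Rnf8-null cells, against 0.337 RPKM (0.269 to 0.418, 84 reads) in Rnf8-complemented cells, 224-fold higher (181 to 281). Lama3 stood at 7.78 RPKM (4746 reads) in Rnf8-null cells, against 0.0328 RPKM (0.0191 to 0.0525, 17 reads) in Rnf8-complemented cells, 237-fold higher (148 to 407). Both chains thus stood above 7 RPKM in Rnf8-null cells and below 0.5 RPKM in Rnf8-complemented cells. In GENCODE vM21 the transcribed region of Lamb3 overlaps Hsd11b1 and G0s2 on the opposite strand, though RefSeq starts Lamb3 well inside that region. The annotation and use of strand in counting were not given in the sources used here. Hsd11b1 and G0s2 had 526 and 1360 reads in Rnf8-null cells, against 9 and 0 in Rnf8-complemented cells. Their reads are few beside the 22174 of Lamb3, and whether any were counted to Lamb3 was not tested.

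The other laminin alpha chains were divided. Lama5 (chromosome 2, 180176373 to 180225859), the main alpha chain of mature epithelial basement membranes, was the most abundant laminin alpha chain in both libraries. It stood at 43.1 RPKM (42.6 to 43.6) in Rnf8-null cells and at 1.51 RPKM (1.41 to 1.61) in Rnf8-complemented cells, 28.5-fold higher (26.7 to 30.6). Lama4, a chain better known from the basement membranes of vessels and mesenchymal cells, was also higher, with 2233 reads in Rnf8-null cells and 5 in Rnf8-complemented cells, or 3.99 RPKM in Rnf8-null cells against 0.0105 RPKM in Rnf8-complemented cells. None of 10 endothelial markers reached a mean of 1 RPKM, and together they summed to 0.657 RPKM in Rnf8-null cells and 0.981 RPKM in Rnf8-complemented cells. Lama1, an embryonic chain, and Lama2, the chain of muscle and nerve, were at or near 0 in both forms, with 0 and 8 reads in Rnf8-null cells and 1 and 33 in Rnf8-complemented cells. Summed over the 5 genes, laminin alpha chains came to 54.9 RPKM in Rnf8-null cells and 1.62 RPKM in Rnf8-complemented cells, a 33.9-fold gap.

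The beta and gamma chains that most laminins share differed much less. Lamc1 (chromosome 1, 153218922 to 153332786), the gamma chain of most trimers, stood at 28.1 RPKM (27.6 to 28.6) in Rnf8-null cells and 53.9 RPKM (53.1 to 54.6) in Rnf8-complemented cells, within the 2-fold limit on the log2 scale at -0.91. Lamb2 stood at 27.3 RPKM in Rnf8-null cells and 35.8 RPKM in Rnf8-complemented cells, and Lamb1 at 7.83 RPKM in Rnf8-null cells and 4.38 RPKM in Rnf8-complemented cells. Lamc3, a gamma chain of few trimers, had 8 reads in each library. The ratio of Lama5 to Lamc1 was 1.53 within Rnf8-null cells and 0.0280 within Rnf8-complemented cells, and the ratio of Lamb3 to Lamb2 was 2.77 within Rnf8-null cells and 0.00941 within Rnf8-complemented cells. Rnf8-complemented cells thus held abundant Lamb2 and Lamc1 but little of any laminin alpha chain.

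Among the laminin-binding integrins Itgb4 and Itga6 showed the widest gaps. Itgb4 (chromosome 11, 115974709 to 116008412), whose long cytoplasmic tail binds plectin in the hemidesmosome, stood at 18.7 RPKM (18.3 to 19.1, 9409 reads) in Rnf8-null cells, against 0.168 RPKM (0.132 to 0.212, 72 reads) in Rnf8-complemented cells, 111-fold higher (88.0 to 142). Its partner Itga6 (chromosome 2, 71745616 to 71858416) stood at 10.8 RPKM (5391 reads) in Rnf8-null cells, against 0.132 RPKM (0.0994 to 0.171, 56 reads) in Rnf8-complemented cells, 81.7-fold higher (62.8 to 108). Itga3 (chromosome 11, 95044474 to 95076801), which pairs with Itgb1 and binds the laminins with Lama3 or Lama5, was abundant in both, at 104 RPKM (103 to 105) in Rnf8-null cells and 42.8 RPKM (42.1 to 43.6) in Rnf8-complemented cells, 2.43-fold higher (2.38 to 2.48). Itga7, the laminin receptor chain of muscle, was low, at 0.798 RPKM in Rnf8-null cells and 1.30 RPKM in Rnf8-complemented cells. The Rnf8-complemented form thus had RNA for a laminin receptor chain, Itga3, but next to none for Itga6 and Itgb4.

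**Figure D2:**
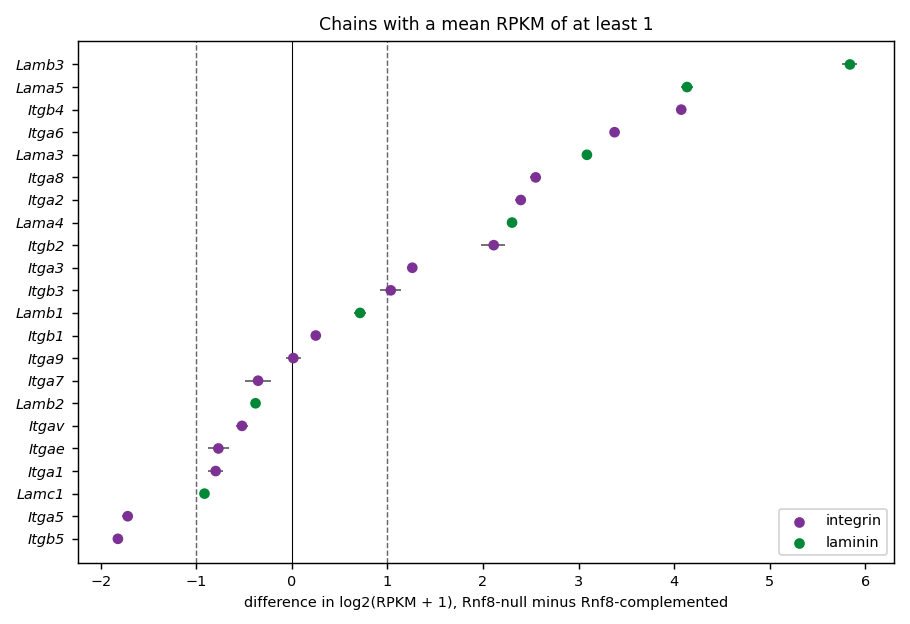
Difference in log2(RPKM + 1), Rnf8-null minus Rnf8-complemented, for integrin and laminin chains with a mean RPKM of at least 1; bars are exact 95% counting limits and cover no spread between cultures. The dashed lines mark a difference of 1 in each direction; Lamb3 is highest at 5.84, and Itgb5 (-1.82) and Itga5 (-1.72) are the only points left of the lower line.

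The lower chains were receptors for fibronectin and vitronectin. Itgb5 (chromosome 16, 33829665 to 33949338), which pairs with Itgav to bind vitronectin, stood at 49.5 RPKM (48.5 to 50.5) in Rnf8-null cells and 177 RPKM (175 to 179) in Rnf8-complemented cells, 3.58-fold lower (3.50 to 3.67). Itga5 (chromosome 15, 103344286 to 103366763), the fibronectin receptor chain, stood at 9.97 RPKM (9.59 to 10.4) in Rnf8-null cells and 35.1 RPKM (34.3 to 35.9) in Rnf8-complemented cells, 3.52-fold lower (3.36 to 3.68). Their partners differed less. Itgb1 (chromosome 8, 128685654 to 128733200), the shared beta chain, stood at 142 RPKM in Rnf8-null cells and 119 RPKM in Rnf8-complemented cells, a ratio of 1.19 (1.17 to 1.21). Itgav stood at 3.92 RPKM in Rnf8-null cells and 6.06 RPKM in Rnf8-complemented cells, a log2 difference of -0.52.

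Among the other RGD receptors, Itga8, best known from kidney development, where it binds nephronectin, stood at 5.32 RPKM (1863 reads) in Rnf8-null cells and 0.0773 RPKM (23 reads) in Rnf8-complemented cells, 68.8-fold higher (45.7 to 109). An antisense gene that overlaps it, E030013I19Rik, had 194 reads in Rnf8-null cells and 0 in Rnf8-complemented cells. Itgb3, whose pair with Itgav binds vitronectin, lay just past the limit at 2.82 RPKM in Rnf8-null cells and 0.865 RPKM in Rnf8-complemented cells, a log2 difference of 1.03. Itgb6 and Itgb8, which with Itgav release TGF-beta from its latent form, were low in Rnf8-null cells and nearly unread in Rnf8-complemented cells. Itgb6 had 204 reads (0.516 RPKM) in Rnf8-null cells and 0 in Rnf8-complemented cells. That is 57.7-fold higher when the 0 is set to 3 reads, a chosen floor and not an exact limit. Itgb8 had 205 reads (0.571 RPKM) in Rnf8-null cells and 8 (0.0263 RPKM) in Rnf8-complemented cells. Both lie below a mean of 1 RPKM and were called neither higher nor lower.

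The leading collagen receptor chain was Itga2 in Rnf8-null and Itga1 in Rnf8-complemented cells. Itga2 (chromosome 13, 114833081 to 114932100), a receptor for fibrillar collagen in epithelia and platelets, had 1079 reads (4.47 RPKM) in Rnf8-null cells and 8 reads (0.0390 RPKM) in Rnf8-complemented cells, 114-fold higher (57.9 to 266). Itga1, its neighbour 20995 bases away and a receptor for collagen IV, stood at 2.09 RPKM in Rnf8-null cells and 4.37 RPKM in Rnf8-complemented cells. That is 2.09-fold less (1.94 to 2.25), though within the limit on the log2(RPKM + 1) scale at -0.80. Pelo, a gene read on the same strand inside Itga1, had 1140 reads in Rnf8-null cells and 1759 in Rnf8-complemented cells, and reads of the pair may be shared. Itga10 and Itga11, the collagen receptors of cartilage and fibroblasts, stayed at or below 0.524 RPKM in both libraries. Itga9, a receptor for tenascin-C among others, was level at 4.59 RPKM in Rnf8-null cells and 4.53 RPKM in Rnf8-complemented cells (log2 difference 0.02, and -0.01 when the 10 genes with most reads were left out of the library totals).

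The upstream sequences of 4 chains named above are given to show the promoters of higher (Lama5, Itga2) beside lower (Itga5, Itgb5) members. They are the 250 bases before the start of the gene, 5′ to 3′ on its own strand, from RefSeq on GRCm38.p6, in which 23 of the 37 genes had an entry. Capitals mark CACCTG, read on both strands, the E-box form bound by Snail and Zeb factors. The windows are chr2:180225860-180226109 (minus strand) for Lama5, chr13:114932101-114932350 (minus) for Itga2, chr15:103366792-103367041 (minus) for Itga5 and chr16:33829415-33829664 (plus) for Itgb5.
Lama5: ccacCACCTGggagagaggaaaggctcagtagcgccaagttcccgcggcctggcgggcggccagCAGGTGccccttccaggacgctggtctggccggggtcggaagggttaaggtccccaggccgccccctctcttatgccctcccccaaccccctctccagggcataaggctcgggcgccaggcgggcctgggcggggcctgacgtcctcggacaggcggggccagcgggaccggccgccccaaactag
Itga2: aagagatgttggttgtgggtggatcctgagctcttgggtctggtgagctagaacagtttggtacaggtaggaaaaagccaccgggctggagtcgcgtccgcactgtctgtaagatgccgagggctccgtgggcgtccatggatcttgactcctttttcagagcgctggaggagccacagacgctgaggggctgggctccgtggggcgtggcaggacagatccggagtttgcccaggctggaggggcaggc
Itga5: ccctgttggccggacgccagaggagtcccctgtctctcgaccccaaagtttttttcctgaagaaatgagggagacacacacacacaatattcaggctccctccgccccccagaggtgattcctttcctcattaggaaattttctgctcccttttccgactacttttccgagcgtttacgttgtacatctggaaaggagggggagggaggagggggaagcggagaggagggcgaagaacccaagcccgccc
Itgb5: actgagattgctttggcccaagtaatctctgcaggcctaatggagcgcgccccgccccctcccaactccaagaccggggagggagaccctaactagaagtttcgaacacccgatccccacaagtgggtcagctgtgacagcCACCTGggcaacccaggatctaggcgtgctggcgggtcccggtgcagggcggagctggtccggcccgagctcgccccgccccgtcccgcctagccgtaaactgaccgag

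Lama5 held 2 matches to CACCTG and Itgb5 held 1, while Itga2 and Itga5 held 0, so the letters were found in a higher and in a lower member. Such a match occurs in 17.2% of 32851 windows of the same length, and in 8 of the 26 windows of the integrin and laminin genes. The general E-box CANNTG, which includes CACCTG, occurs in 66.2% of all windows and was found 2 times in Lama5, 0 times in Itga2, 1 time in Itga5 and 3 times in Itgb5. The AP-1 motif TGANTCA occurs in 6.75% of all windows and in none of the 4 shown. A match to these letters is a description of the window and no evidence of binding.

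The integrins known from blood cells ranged between unread and a few RPKM. Itgb2, the beta chain of leukocyte integrins, stood at 5.13 RPKM (912 reads) in Rnf8-null cells and 0.417 RPKM (63 reads) in Rnf8-complemented cells, 12.3-fold higher (9.51 to 16.1). Its alpha partners were near 0. Itgal, Itgam, Itgax and Itgad had 2, 2, 0 and 13 reads in Rnf8-null cells, against 42, 2, 6 and 27 in Rnf8-complemented cells. The last 3 of these genes lie side by side on chromosome 7 and resemble one another, so their few reads may be shared.

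Most other leukocyte markers gave little signal, with 22 of 25 below a mean of 1 RPKM. Among the rest was Fcer1g, at 2.02 RPKM in Rnf8-null cells and 3.56 RPKM in Rnf8-complemented cells. Some below that mean were read. Csf1r had 292 reads in Rnf8-null cells against 100 in Rnf8-complemented cells, and Lyz2 had 3 in Rnf8-null cells against 75 in Rnf8-complemented cells. Of 25 markers in the table, 15 had 3 reads or fewer in Rnf8-null cells and 10 did in Rnf8-complemented cells, and the general leukocyte gene Ptprc had 0 reads in Rnf8-null cells against 1 in Rnf8-complemented cells. Their summed level was 29.9 RPKM in Rnf8-null cells and 17.0 RPKM in Rnf8-complemented cells, mostly from Cd68 (16.7 RPKM in Rnf8-null cells against 9.33 RPKM in Rnf8-complemented cells), and Lcp1, an actin-bundling protein, was the only one called higher (9.08 RPKM in Rnf8-null cells against 0.0222 RPKM in Rnf8-complemented cells). Itga4, a lymphocyte homing chain, had 0 reads in both libraries, which does not show that its RNA was absent. Itgb7, a beta partner of Itga4, had 21 reads in Rnf8-null cells and 94 in Rnf8-complemented cells. Itgae, which pairs with Itgb7 on lymphocytes within epithelia and binds E-cadherin, stood at 1.98 RPKM in Rnf8-null cells and 4.08 RPKM in Rnf8-complemented cells, 2.06-fold less (1.85 to 2.29). The kinase gene Gsg2 lies within Itgae on the opposite strand and stood at 4.60 RPKM in Rnf8-null cells and 8.89 RPKM in Rnf8-complemented cells, so the values of Itgae may include its reads. Itga2b, the platelet fibrinogen receptor chain, had 136 reads (0.302 RPKM) in Rnf8-null cells and 470 (1.23 RPKM) in Rnf8-complemented cells, and of 10 other platelet markers 4 passed the filter, 1 higher and 2 lower.

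The make-up of the receptor pool differed between the forms. Itga3 made up 69.8% of the summed RPKM of integrin alpha chains in Rnf8-null cells and 42.5% in Rnf8-complemented cells, and Itga5 made up 6.69% in Rnf8-null cells and 34.8% in Rnf8-complemented cells. Among beta chains Itgb1 made up 64.8% in Rnf8-null cells and 40.0% in Rnf8-complemented cells, Itgb5 22.5% in Rnf8-null cells and 59.3% in Rnf8-complemented cells, and Itgb4 8.51% in Rnf8-null cells and 0.0563% in Rnf8-complemented cells. The laminin-binding alpha chains Itga3, Itga6 and Itga7 summed to 116 RPKM in Rnf8-null cells and 44.2 RPKM in Rnf8-complemented cells. Among laminin beta chains Lamb3 made up 68.3% in Rnf8-null cells, and Lamb2 made up 88.4% in Rnf8-complemented cells. These shares compare RNA per length and say nothing of protein at the cell surface.

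**Figure D3:**
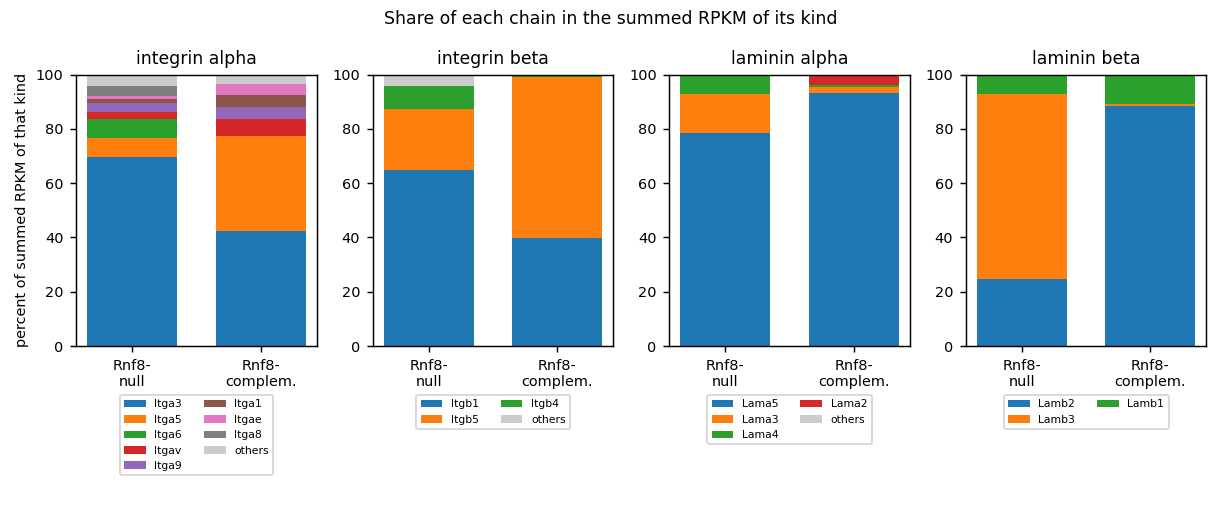
Share of each integrin alpha, integrin beta, laminin alpha and laminin beta chain in the summed RPKM of its kind, in percent, with Rnf8-null cells in the left bar and Rnf8-complemented cells in the right bar of each panel; chains that stay under 3% in both are pooled as others. Itga3 and Itgb1 lead in Rnf8-null cells, Itgb5 leads the beta chains of Rnf8-complemented cells, and Lamb3 takes a large share in Rnf8-null cells alone.

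Of the 24 integrin pairs known in mammals, 11 had both chains at 1 RPKM or more in Rnf8-null cells and 7 in Rnf8-complemented cells. Common to both libraries were 6 pairs, namely Itga3, Itga1, Itga5, Itgav and Itga9 with Itgb1, and Itgav with Itgb5. In Rnf8-null cells alone 5 further pairs were complete, Itga6-Itgb1, Itga6-Itgb4, Itga2-Itgb1, Itga8-Itgb1 and Itgav-Itgb3. In Rnf8-complemented cells alone 1 pair was, Itga7-Itgb1, whose alpha chain stood at 0.798 RPKM in Rnf8-null cells and 1.30 RPKM in Rnf8-complemented cells, on either side of the limit. Itgav-Itgb3 also turned on a chain near the limit, Itgb3 at 0.865 RPKM in Rnf8-complemented cells. The same Itgb3 level left Itga2b-Itgb3 incomplete there, with Itga2b at 1.23 RPKM. Itgae-Itgb7 was incomplete there through Itgb7 at 0.723 RPKM. The remaining 12 pairs were incomplete in both, among them all 4 leukocyte pairs of Itgb2.

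The limit decided these counts in part. With at least 5 RPKM for each chain, 5 pairs were complete in Rnf8-null cells and 4 in Rnf8-complemented cells. Those of Rnf8-null cells were Itga3, Itga6, Itga5 and Itga8 with Itgb1, and Itga6 with Itgb4. Those of Rnf8-complemented cells were Itga3, Itga5 and Itgav with Itgb1, and Itgav with Itgb5. The pair of highest lowest-chain level was Itga3-Itgb1 in both, limited by Itga3 at 104 RPKM in Rnf8-null cells and 42.8 RPKM in Rnf8-complemented cells. RNA for both chains does not show that a receptor is made, and most alpha chains share Itgb1 with others.

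Laminin trimers separated the libraries further. Of 13 trimers examined, 6 had all 3 chains at 1 RPKM or more in Rnf8-null cells and 2 in Rnf8-complemented cells. The 2 complete in both were laminin-511 and laminin-521, the trimers of Lama5 with Lamb1 or Lamb2 and Lamc1, limited in Rnf8-complemented cells by Lama5 at 1.51 RPKM. The 4 in Rnf8-null cells alone were laminin-311, laminin-321, laminin-411 and laminin-421, named by their chain numbers. In Rnf8-complemented cells each of these lacked its alpha chain alone. With a limit of 5 RPKM, 4 trimers were complete in Rnf8-null cells and 0 in Rnf8-complemented cells.

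**Figure D4:**
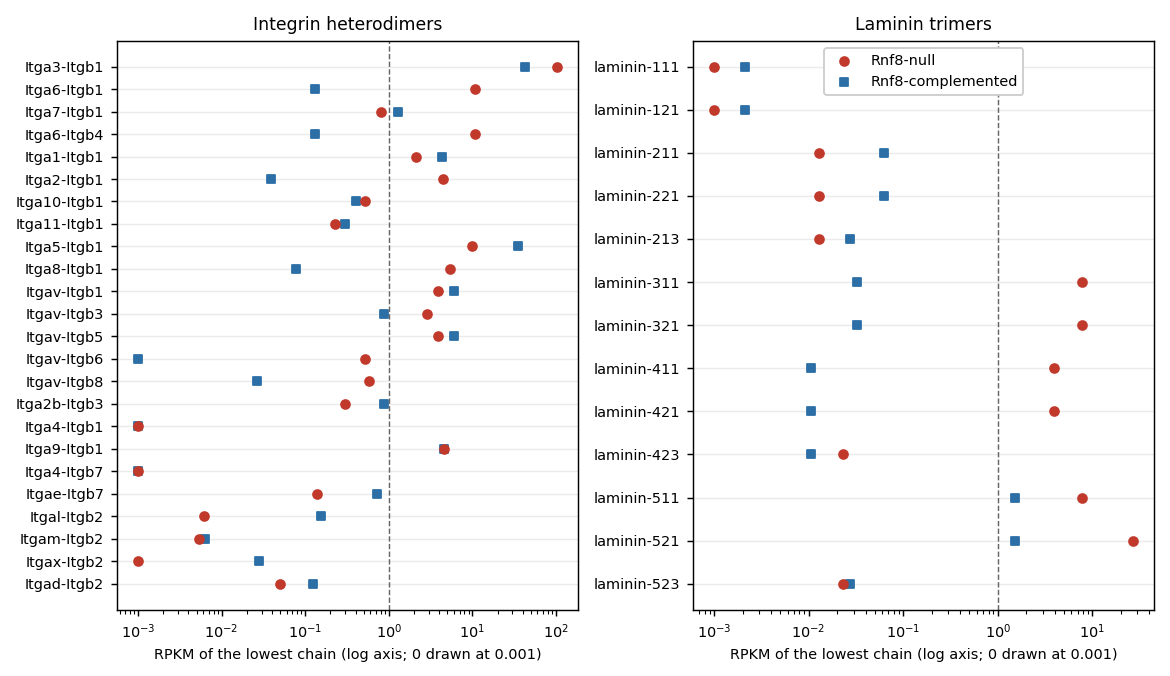
RPKM of the lowest chain of each known integrin pair (left) and of 13 laminin trimers (right) in Rnf8-null cells (red circles) and Rnf8-complemented cells (blue squares), on a log axis with 0 drawn at 0.001. Points right of the dashed line have every chain at 1 RPKM or more, 11 pairs and 6 trimers in Rnf8-null cells and 7 pairs and 2 trimers in Rnf8-complemented cells.

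Counts for the partner lists are read beside the 14.8% of genes past the filter that were higher, the 15.9% that were lower and the median of -0.17 over those genes. Among proteins that link integrins to actin the share past 2-fold was near that of all genes. Of 20 activators and adaptors measured, meaning with a mean of at least 1 RPKM, 4 were higher, 2 were lower and 14 lay within 2-fold, with a median difference of 0.07 (-0.03 over all 26 in the table). Those within 2-fold included vinculin, Vcl, at 20.5 RPKM in Rnf8-null cells and 15.5 RPKM in Rnf8-complemented cells, and the kinase-like scaffold Ilk at 85.7 RPKM in Rnf8-null cells and 88.4 RPKM in Rnf8-complemented cells. The kindlins, which activate integrins together with talin, were unlike each other. Fermt1, the kindlin of epithelia, had 3875 reads (11.9 RPKM) in Rnf8-null cells and 1 read in Rnf8-complemented cells, while Fermt2, the widely expressed kindlin, stood at 20.1 RPKM in Rnf8-null cells and 24.1 RPKM in Rnf8-complemented cells.

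Other proteins of the adhesion site had wide gaps. Tns4, a short tensin that lacks the actin-binding part of its relatives, stood at 69.6 RPKM in Rnf8-null cells and 0.0413 RPKM in Rnf8-complemented cells. Kank1, which binds talin around focal adhesions, stood at 4.53 RPKM in Rnf8-null cells and 0.483 RPKM in Rnf8-complemented cells, and its relative Kank2 was lower at 8.54 RPKM in Rnf8-null cells and 23.6 RPKM in Rnf8-complemented cells. Parvb, an Ilk partner, had 6 reads in Rnf8-null cells and 1092 in Rnf8-complemented cells. Of 16 kinases and scaffolds 4 were higher and 1 lower, and their median of -0.17 was that of all genes past the filter. Focal adhesion kinase, Ptk2, stood at 8.44 RPKM in Rnf8-null cells and 11.3 RPKM in Rnf8-complemented cells, whereas the kinase Fyn had 34 reads in Rnf8-null cells and 7248 in Rnf8-complemented cells, and the scaffold Nedd9 stood at 45.1 RPKM in Rnf8-null cells and 5.32 RPKM in Rnf8-complemented cells.

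**Figure D5:**
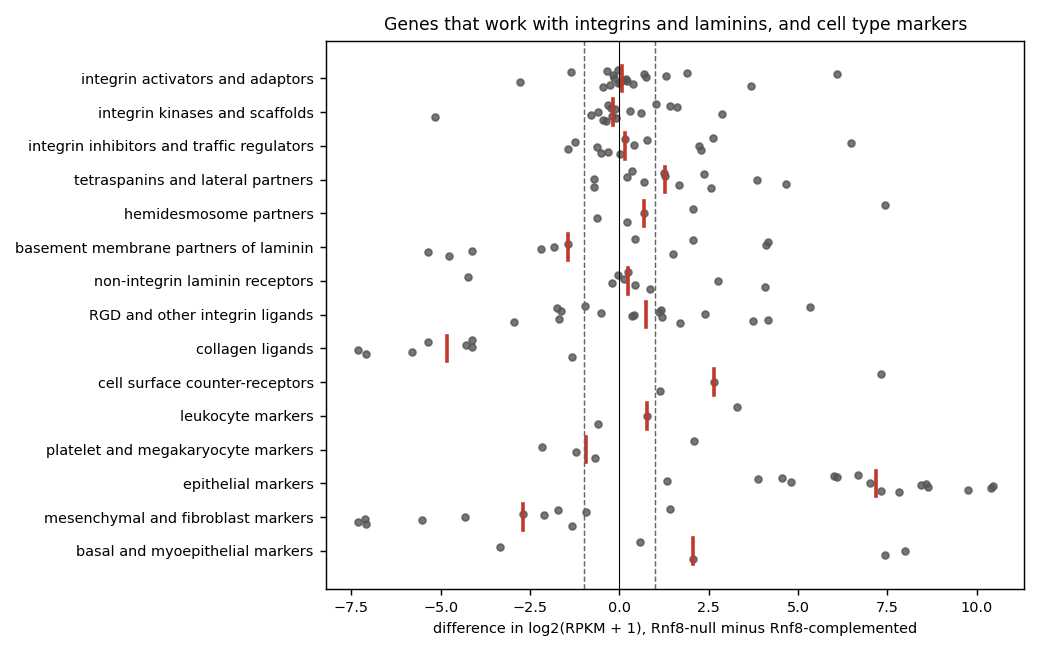
Difference in log2(RPKM + 1), Rnf8-null minus Rnf8-complemented, of each gene with a mean RPKM of at least 1 (grey points) in lists of integrin and laminin partners and of cell type markers, the integrin and laminin genes left out; red bars are list medians. Linkers and kinases centre near 0, collagen ligands lie to the left with a median of -4.82, and epithelial markers lie to the right with a median of 7.18.

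Among regulators and lateral partners the largest differences in log2(RPKM + 1) were those of Rab25 and Cd82. Of 13 measured inhibitors and traffic regulators 4 were higher and 2 lower (median 0.15, and 0.03 over all 15), and among them Rab25, a recycling GTPase that binds Itgb1 in epithelial cells, stood at 141 RPKM in Rnf8-null cells and 0.582 RPKM in Rnf8-complemented cells. Of 12 tetraspanins and other lateral partners 7 were higher and 0 lower (median 1.27, and 1.25 over all 13). Cd9 stood at 677 RPKM in Rnf8-null cells and 114 RPKM in Rnf8-complemented cells, and Cd82 at 128 RPKM in Rnf8-null cells and 4.11 RPKM in Rnf8-complemented cells. Tspan1 stood at 14.5 RPKM in Rnf8-null cells and 0.0626 RPKM in Rnf8-complemented cells. As a ratio of RPKM its gap was wider than that of Cd82, 231-fold (106 to 631) against 31.1-fold (28.2 to 34.3). Cd151, the tetraspanin that sits with Itga3 and Itga6, was within 2-fold at 97.9 RPKM in Rnf8-null cells and 60.0 RPKM in Rnf8-complemented cells.

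The hemidesmosome was represented only in part. Of 5 measured partners apart from the integrins, 2 were higher and 3 within 2-fold. Krt14, a keratin of basal cells, stood at 229 RPKM in Rnf8-null cells and 0.335 RPKM in Rnf8-complemented cells, and its partner Krt5 had 402 reads in Rnf8-null cells against 0 in Rnf8-complemented cells. The cytolinker Plec stood at 7.34 RPKM in Rnf8-null cells and 6.21 RPKM in Rnf8-complemented cells. Col17a1, the transmembrane collagen of hemidesmosomes, was low in both, with 38 reads in Rnf8-null cells and 68 in Rnf8-complemented cells.

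Other basement membrane genes were split. Of 11 measured partners 4 were higher and 6 lower in Rnf8-null cells, with a median of -1.44 (-0.02 over all 20 in the table). Most of those called stood below 1 RPKM in 1 form and passed the filter only through their level in the other. Hspg2, which encodes the proteoglycan perlecan, had 11 reads in Rnf8-null cells and 18530 in Rnf8-complemented cells. The collagen IV genes Col4a1 and Col4a2 stood at 0.0606 and 0.236 RPKM in Rnf8-null cells, against 42.2 and 20.5 RPKM in Rnf8-complemented cells. Col4a5 and Col4a6 were lower too but stood at 21.1 and 14.5 RPKM in Rnf8-null cells, against 101 and 54.1 RPKM in Rnf8-complemented cells. They were the most abundant collagen IV genes in both libraries. Col4a3 and Col4a4 had 3 and 34 reads in Rnf8-null cells and 11 and 16 in Rnf8-complemented cells. The nidogens Nid1 and Nid2, which bridge laminin and collagen IV, had 2 and 14 reads in Rnf8-null cells and 6 and 22 in Rnf8-complemented cells. On the higher side were Npnt, which encodes the Itga8 ligand nephronectin, with 4871 reads in Rnf8-null cells and 12 in Rnf8-complemented cells, Agrn, the laminin-binding proteoglycan agrin, at 65.2 RPKM in Rnf8-null cells against 22.3 RPKM in Rnf8-complemented cells, Col7a1, the anchoring fibril collagen, at 27.2 RPKM in Rnf8-null cells against 0.644 RPKM in Rnf8-complemented cells, and Ntn4.

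Of 9 measured receptors that bind laminin without being integrins, 2 were higher and 1 lower (median 0.23, and 0.10 over all 13), shares near those of all genes. Bcam, a receptor for Lama5, stood at 35.1 RPKM in Rnf8-null cells and 1.16 RPKM in Rnf8-complemented cells, and the syndecan Sdc1 at 618 RPKM in Rnf8-null cells and 90.4 RPKM in Rnf8-complemented cells. Another syndecan, Sdc3, was lower at 8.76 RPKM in Rnf8-null cells and 184 RPKM in Rnf8-complemented cells. Dag1, which encodes dystroglycan, was within 2-fold at 85.3 RPKM in Rnf8-null cells and 46.4 RPKM in Rnf8-complemented cells.

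Ligands of the remaining integrins differed by class. All 8 measured collagen ligands were lower in Rnf8-null cells (median -4.82, and -4.20 over all 10). Col5a2 stood at 0.0435 RPKM in Rnf8-null cells against 165 RPKM in Rnf8-complemented cells. Col6a1 stood at 14.7 RPKM in Rnf8-null cells against 271 RPKM in Rnf8-complemented cells. Of the 10, 3 reached 1 RPKM in Rnf8-null cells and 9 in Rnf8-complemented cells. Most of the 8 thus passed the filter only through their level in Rnf8-complemented cells. Several, among them Col4a1, Col4a2 and Col5a2, are also in the basement membrane or mesenchymal lists, so these counts overlap. Of 16 measured RGD and other ligands 8 were higher and 4 lower (median 0.76, and 0.00 over all 27), so this class had no common direction. Fn1, fibronectin, stood at 126 RPKM in Rnf8-null cells and 38.2 RPKM in Rnf8-complemented cells, and was thus higher where its receptor chain Itga5 was lower. Tnc, tenascin-C, stood at 124 RPKM in Rnf8-null cells and 8.41 RPKM in Rnf8-complemented cells. Spp1, osteopontin, stood at 1323 RPKM in Rnf8-null cells and 10279 RPKM in Rnf8-complemented cells. Vtn, vitronectin, had 0 reads in both. Of 10 surface counter-receptors 3 had a mean of at least 1 RPKM, F11r, Jam2 and the Itgae ligand Cdh1, and were higher, Jam2 and Cdh1 passing through their level in Rnf8-null cells alone. The other 7 were low in both forms, some with more reads in Rnf8-complemented cells (Jam3 with 11 in Rnf8-null cells against 93 in Rnf8-complemented cells), and the median over all 10 was 0.05. Cdh1 stood at 166 RPKM in Rnf8-null cells against 0.0326 RPKM in Rnf8-complemented cells.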

How the data were processed

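Per the labels' protocols, total RNA of the cell line was taken with a column kit and made into Illumina TruSeq libraries. The authors deposited 1 table of raw counts and RPKM values for 23562 gene symbols and 2 libraries. Bedtools, SAMtools 0.1.18, DESeq2, STAR 2.4.0f1 and the build GRCm38 (mm10) appear in the submitters' processing notes without a role. The counting tool, annotation and use of strand were not given in the sources used here. The deposited RPKM equalled count over library total and 1 gene length to within 6.55e-11. Columns were matched to samples by title, and 0 columns of other samples were present.

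The main unit was RPKM, and differences are log2(RPKM + 1), Rnf8-null minus Rnf8-complemented, which understates low genes, so folds are ratios of RPKM. Limits on counts are exact Poisson and those on folds exact conditional binomial (Clopper-Pearson), both for counting error only, since reads lacking molecular identifiers can be copies of 1 molecule. With 1 library a group no test was run. The members, the 16 partner and marker lists, the limits and the motifs were chosen with earlier results of these data known. Named genes are all members and up to 4 genes of each list with the largest difference, and members needed to complete a count. Vcl, Ilk, Fermt2, Kank2, Ptk2, Plec, Col17a1, Nid1, Nid2, Agrn, Col7a1, Ntn4, Col6a1, Fn1, Vtn, Jam3, Mylk, Trp63 and Ptprc were added after their values were seen. So were S100a4, Vim, Col4a3, Col4a4, Col4a5, Col4a6, Csf1r and Lyz2. The pipeline was tested on simulated counts. Of the members 1 chain enters the counts but is not reported here, nor are trimers that hold it. Positions are from GENCODE vM21 (GRCm38). Tools were Python 3.11.15, scipy 1.17.1 and edgeR 4.0.16 in R 4.3.3 (TMM factors).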

Additional observations from a re-analysis of the deposited data

How the results depend on the processing

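Rescaling moved all genes together, with TMM factors raising the median difference of genes past the filter by 0.20 and median-of-ratios factors by 0.21. The counts of 12 higher and 2 lower chains were the same under both and without the 10 genes with most reads, and no called chain reversed under any alternative. Of the 14 called chains 10 stayed past 2-fold under every pseudocount and scaling tried. The others were Itga2, Itgb2, Itgb3 and Lama4, at 0.91, 0.90, 0.42 and 0.84 with a pseudocount of 5 RPKM, which left 8 higher. With a pseudocount of 0.1 RPKM there were 4 lower chains, Itga1 and Itgae being added. With a mean of at least 5 RPKM there were 6 higher chains, as fewer chains entered, and with a 4-fold rule there were 10 higher and 0 lower. The median over chains past the filter was 1.03 as reported, against 1.28 and 0.45 with pseudocounts of 0.1 and 5 RPKM, 0.00 without a filter, 1.17 with TMM and 1.18 with median-of-ratios factors.

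With chains counted as expressed from 5 RPKM, 5 integrin pairs were complete in Rnf8-null cells and 4 in Rnf8-complemented cells, and 0 laminin trimers were complete in Rnf8-complemented cells. From 0.5 RPKM, 15 pairs were complete in Rnf8-null cells and 10 in Rnf8-complemented cells. Itga7-Itgb1 and Itgav-Itgb3 were then complete in both, and Itga2b-Itgb3 and Itgae-Itgb7 in Rnf8-complemented cells alone. No paired analysis was possible because each form had 1 library and no test was run, and for the same reason no library could be left out. Chains with few reads, such as Lama2, Itgal or Itgb8, are limited by depth.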
